A study of Mus musculus with 17 samples.

Results

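Immature B cell genes mark B lymphocytes that are still being built in the bone marrow or have only just left it. The list described here was given by gene symbol and has 8 members, of which 7 were measured, out of 17097 genes measured in all. The measured members were the transcription factor genes Sox4 and Myb, the pre-B cell gene Vpreb3, the surface marker genes Cd93 and Cd24a, and the recombinase genes Rag1 and Rag2. Igll1, which encodes the lambda5 part of the surrogate light chain, was not analysed here, because no probe set was annotated to it alone.

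The cells were sorted by flow cytometry from male NOD mice, a strain in which lymphocytes infiltrate the lacrimal (tear) gland and which serves as a model of Sjögren's syndrome. From the gland of 16-week-old mice there were 3 arrays of epithelial cells (CD45 negative, CD326 positive), 4 of B cells (B220 positive, CD3 negative) and 4 of CD4 T cells, and from the spleen 3 of B cells and 3 of CD4 T cells, named by the submitters as steady-state controls. Gland tissue was digested with enzymes before the sort. Sample labels give the spleen donors as 16 weeks old and the design text as 4 weeks old, so if the design text holds, tissue and age cannot be told apart. No genotype other than NOD and no treatment was given for any group. Whether the arrays of a group are from separate animals is not said in the labels, so the p-values rest on the spread among these samples alone, and that spread may be technical.

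B cells develop in the bone marrow, where the Rag1 and Rag2 proteins together cut and rejoin immunoglobulin gene segments. A pre-B cell tests its new heavy chain with a surrogate light chain made of the Igll1 product and a VpreB protein. Cells that pass develop further in the marrow before they leave for the spleen as transitional B cells. Transitional cells still carry CD93, recognised by the antibody AA4.1, and much CD24, and they lose CD93 as they become follicular or marginal zone B cells. Sox4 and Myb are DNA-binding factors needed early in B cell development; they are also used by precursors of other blood cells, and Sox4 by many epithelia.

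Upstream sequences are shown for 4 of the members that were lower in gland than in splenic B cells. Cd93, also lower there, had no promoter entry and is not shown. RefSeq's table for GRCm38.p6 held 6 of the 8 listed genes, and 4 of these are printed as the 250 bases before an annotated start, written 5′ to 3′ in the direction of the gene. The Vpreb3 stretch lies inside the annotated span of its gene (chr10:75943024-75949657), so it precedes a start within that span. Capitals mark matches to the CCAAT box (CCAAT, on either strand) and to the octamer of immunoglobulin promoters (ATTTGCAT, on either strand).
Sox4 (chr13:28953700-28953949, - strand): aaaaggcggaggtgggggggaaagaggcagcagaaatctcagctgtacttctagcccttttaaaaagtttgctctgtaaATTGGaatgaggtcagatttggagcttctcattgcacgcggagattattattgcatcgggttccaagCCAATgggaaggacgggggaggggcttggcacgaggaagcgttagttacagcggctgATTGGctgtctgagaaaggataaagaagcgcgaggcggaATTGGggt
Myb (chr10:21160985-21161234, - strand): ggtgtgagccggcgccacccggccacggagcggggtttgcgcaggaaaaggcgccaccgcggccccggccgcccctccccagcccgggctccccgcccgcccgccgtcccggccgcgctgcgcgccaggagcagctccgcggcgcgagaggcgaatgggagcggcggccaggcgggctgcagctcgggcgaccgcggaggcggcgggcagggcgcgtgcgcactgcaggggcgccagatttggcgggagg
Vpreb3 (chr10:75948050-75948299, + strand): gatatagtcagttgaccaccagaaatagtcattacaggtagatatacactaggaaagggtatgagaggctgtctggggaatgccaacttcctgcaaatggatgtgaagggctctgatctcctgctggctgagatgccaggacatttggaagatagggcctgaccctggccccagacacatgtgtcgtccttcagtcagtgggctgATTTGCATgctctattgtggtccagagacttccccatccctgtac
Rag1 (chr2:101649533-101649782, - strand): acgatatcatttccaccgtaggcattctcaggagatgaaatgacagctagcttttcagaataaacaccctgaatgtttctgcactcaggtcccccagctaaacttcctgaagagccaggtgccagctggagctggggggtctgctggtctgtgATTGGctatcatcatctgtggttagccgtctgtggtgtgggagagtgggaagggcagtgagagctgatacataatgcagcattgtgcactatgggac

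By letter content Myb differed from the other 3. The Myb stretch was 81.2% G and C with 40 CG pairs, against a median of 52.4% and 6 CG pairs over 32851 promoters of the same length, while the stretches of Sox4 (50.8%), Vpreb3 (50.4%) and Rag1 (50.8%) were close to that median. Sox4 held 4 CCAAT boxes, beginning 171, 104, 47 and 8 bases before the start, and Rag1 held 1, beginning 97 bases before it. A CCAAT box occurred in 33.8% of all promoters. Vpreb3 alone of the 4 held the octamer, which began 45 bases before the start used, inside the gene span, and occurred in 1.6% of all promoters. The E-box CAGNTG, found in 44.8% of promoters, occurred once in Sox4, 3 times in Rag1 and once in Vpreb3, where it overlapped a match to AACNG, the core letters bound by Myb proteins (74.2% of promoters). Searched on both strands, CCCNNGGG, the letters bound by the B lineage factor Ebf1 (11.8%), and TATAAA (12.4%) were in none of the 4 stretches. These matches describe letters in a window and not binding.

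All values below are log2 expression levels as deposited, in which a step of 1 is a 2-fold difference. Their median was 4.71 over all probe sets and arrays, and they carry no detection calls. A level under 4.71 is therefore called low and not absent, and a difference against such a level is one of deposited values. Arrays of a group correlated at 0.977 to 0.996. Markers of the sorted cells stood in their own groups: 4 B cell markers averaged 9.67 in gland B and 9.81 in splenic B cells, and 6 T cell markers 10.45 in gland and 10.25 in splenic CD4 T cells. An array of splenic B cells, replicate 3, stood apart in neutrophil genes: S100a8 was at 9.63 there and at 3.59 and 3.32 in replicates 1 and 2. An epithelial array, replicate 1, had a T cell marker mean of 6.17, the highest of its group, whose lowest was 3.42. Its means for B cell (4.58), myeloid (5.83) and plasma cell markers (6.98) were also the highest there. The lowest of the group were 3.70, 4.20 and 5.83. The main results on groups that hold these arrays are given with and without them. Each gene's spread was shared over all 17 arrays, so these arrays also entered the SE of the other comparisons. In sorted bulk RNA, fewer cells of a type and less RNA per cell cannot be told apart.

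Of the 7 members, 5 fell in gland B cells and none rose, and the other 2 did not pass. The rule for a call was a limma p under 0.05, adjusted by Benjamini-Hochberg over the 17097 genes, with at least a 2-fold difference, by which 1.6% of all genes were lower and 2.58% higher in gland than in splenic B cells. By an unadjusted p under 0.05 the same counts were 5 lower and 0 higher. The share of all genes under that unadjusted threshold was not counted, so counts by it, here and below, have no such share beside them. The members had a median log2 fold change of -1.51, against 0 over all genes. Without spleen replicate 3, 5 members were again called lower.

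**Figure D1:**
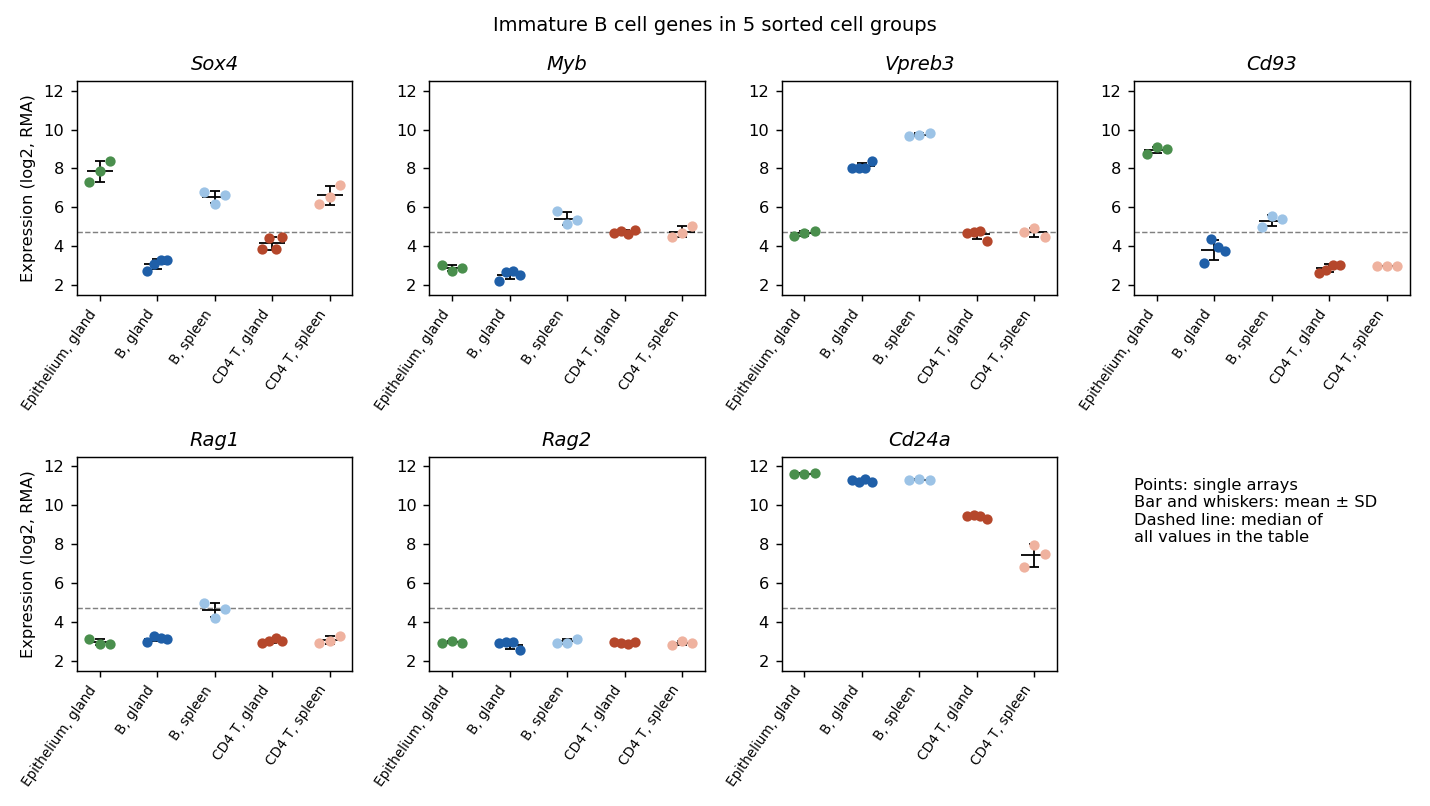
Log2 expression (RMA, vertical axis) of each measured immature B cell gene in every array of the 5 groups, with mean ± SD in black and the median of all values (4.71) dashed. Sox4, Myb, Vpreb3, Cd93 and Rag1 were lower in every gland B array than in every spleen B array, and Cd24a stood between 11.2 and 11.35 in all 7 of these arrays.

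Sox4, a high-mobility-group transcription factor that pro-B cells need, had the largest change of the members. It stood at 2.70, 3.07, 3.31 and 3.27 in the 4 gland B arrays, against 6.78, 6.18 and 6.62 in the 3 spleen B arrays. All gland arrays lay below all spleen arrays. The mean fell by 3.44 on the log2 scale (SE 0.27, adjusted p = 3.76e-07 by limma).

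Myb, the factor that keeps blood cell precursors dividing, stood at 2.23, 2.67, 2.74 and 2.53 in gland B cells, against 5.81, 5.14 and 5.33 in splenic B cells. The groups did not overlap. Gland values were at or below the level of Rag2, which was low in every group, so they are not shown to stand above background, and they overlapped those of the epithelial sort (3.04, 2.72 and 2.87). Myb fell by 2.89 (SE 0.16, adjusted p = 1.02e-08 by limma).

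Vpreb3 encodes an immunoglobulin-like protein of B cell precursors that binds immunoglobulin chains inside the cell. It was the only called member that remained well above the median of all values in the gland, at 8.01, 8.05, 8.02 and 8.37 in gland B cells, against 9.67, 9.71 and 9.81 in splenic B cells. The groups lay apart, with 3 gland arrays within 0.04 of each other. It fell by 1.62 (SE 0.13, adjusted p = 6.28e-07 by limma), a 3.07-fold difference.

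Cd93, the transitional B cell marker, stood at 3.14, 4.35, 3.97 and 3.77 in gland B cells, against 5.0, 5.57 and 5.40 in splenic B cells. Gland replicate 1 was the lowest and replicate 2 the highest of a group that spread more than the others, and both lay below the spleen arrays. Cd93 fell by 1.51 (SE 0.21, adjusted p = 0.000146 by limma). Of its 3 probe sets, the one used here was the only one with a group mean above 4.71 in any group. The other probe sets averaged 2.81 ± 0.04 and 2.17 ± 0.07 in gland B cells, against 2.83 ± 0.08 and 2.30 ± 0.31 in splenic B cells (SD, n = 4 and 3), and differed by -0.02 (adjusted p = 0.913) and -0.13 (adjusted p = 0.561) in a limma fit of all probe sets. With the mean of the 3 probe sets Cd93 was at -0.56 and no longer called.

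Rag1, the DNA-cutting partner in the recombinase, stood at 2.99, 3.28, 3.15 and 3.14 in gland B cells, against 4.95, 4.21 and 4.64 in splenic B cells. Only spleen replicate 1 exceeded the median of all values. Rag1 fell by 1.46 (SE 0.14, adjusted p = 4.32e-06 by limma), with no overlap between the groups. Its partner Rag2, which lies next to Rag1 on chromosome 2, stood at 2.90, 2.95, 2.96 and 2.53 in gland B cells, against 2.94, 2.92 and 3.14 in splenic B cells. These values overlapped and were all low, and the difference of -0.17 (95% interval -0.38 to 0.04, adjusted p = 0.284 by limma) did not pass.

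Cd24a, the heat-stable antigen, is high on immature B cells but is carried by mature B cells as well. It stood at 11.31, 11.20, 11.35 and 11.22 in gland B cells, against 11.28, 11.35 and 11.31 in splenic B cells, and the groups overlapped. The difference was -0.04 (95% interval -0.41 to 0.33, adjusted p = 0.906 by limma). Its second probe set was at 9.93 ± 0.13 in gland B cells and 9.63 ± 0.05 in splenic B cells (SD, n = 4 and 3), a difference of 0.30 that did not pass either (adjusted p = 0.279 by limma over all probe sets).

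**Figure D2:**
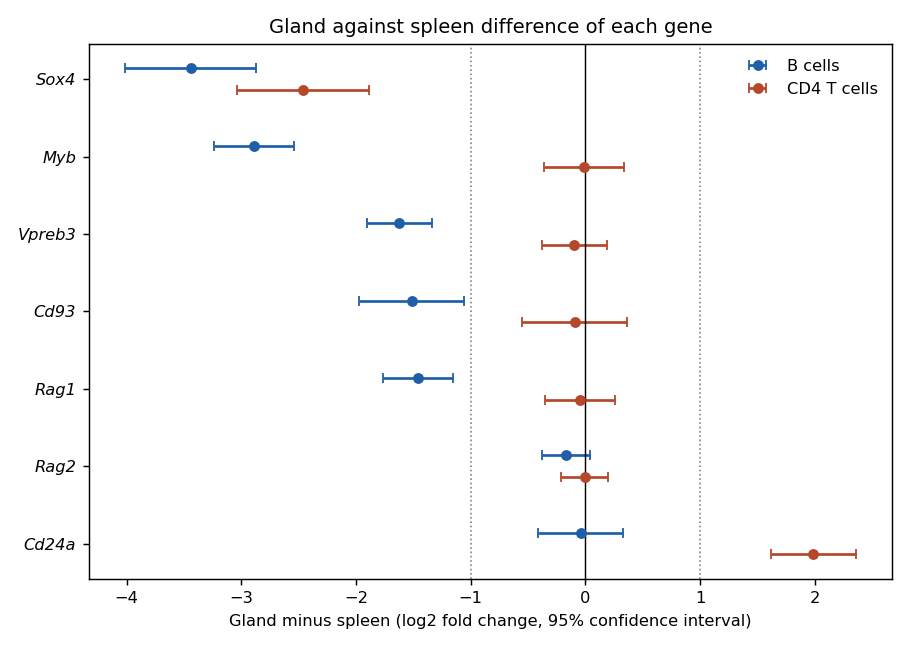
Gland minus spleen difference of each gene (horizontal axis, log2 fold change) with its 95% confidence interval from limma, for B cells (blue, upper point) and CD4 T cells (red, lower point); dotted lines mark 2-fold. Sox4 lay below -1 in both cell types (-3.44 and -2.46), Myb, Vpreb3, Cd93 and Rag1 in B cells, and Cd24a lay above 1 in CD4 T cells (1.99).

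CD4 T cells showed a different set of changes, with Sox4 lower, Cd24a higher and the other 5 members not called. Over all genes 1.62% were called lower and 5.35% higher in gland than in splenic CD4 T cells, and the members' median was -0.05, against -0.03 over all genes. Sox4, which T cell precursors also express, stood at 3.86, 4.40, 3.88 and 4.49 in gland CD4 T cells, against 6.18, 6.55 and 7.13 in splenic CD4 T cells. Every gland array lay below every splenic array. Sox4 fell by 2.46 (SE 0.27, adjusted p = 4.99e-06 by limma). In a fit of the CD4 T cell arrays alone, 1 member was again called lower and 1 higher.

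Cd24a stood at 9.47, 9.48, 9.43 and 9.28 in gland CD4 T cells, against 6.82, 7.97 and 7.48 in splenic CD4 T cells. The gland arrays lay close together and all above the spleen arrays. It rose by 1.99 (SE 0.17, adjusted p = 4.15e-07 by limma), a 3.97-fold difference, and its second probe set rose by 1.88 (adjusted p = 8.07e-07 by limma over all probe sets). Other cells with much Cd24a were in the same tissue, at 11.63 ± 0.04 in epithelium and 11.27 ± 0.07 in gland B cells. Of 7 epithelial markers 5 rose in gland CD4 T cells, where their mean level ran from 5.94 to 6.35 over the arrays, against 3.89 to 4.00 in splenic CD4 T cells. None of 4 B cell markers was called by limma (0 at an unadjusted p under 0.05). Their mean ran from 4.43 to 5.08 in gland and from 4.54 to 4.81 in splenic CD4 T cells. Of 12 mature B cell surface genes 2 were called higher in gland CD4 T cells, Cxcr5 by 1.49 and Tnfrsf13c by 1.12 (5 higher and 0 lower at an unadjusted p under 0.05). The Tnfrsf13c call was lost without any single array but gland replicate 2 (adjusted p from 0.0555 to 0.0888 by limma). Its arrays lay apart all the same, at 8.43 to 8.63 in gland and 7.32 to 7.46 in splenic CD4 T cells. The spread used for that p was shared with the epithelial arrays, where Tnfrsf13c stood at 6.89, 4.58 and 4.93. Of 4 plasma cell genes 3 were called higher. Jchain averaged 9.09 ± 0.53 in gland and 5.57 ± 1.30 in splenic CD4 T cells, Prdm1 was higher by 2.33 and Xbp1 by 1.14. Tnfrsf17 was at 0.17 and not called. Prdm1 stood at 8.23 to 8.87 in gland CD4 T cells, against 4.91 to 5.78 in gland B cells. Xbp1 stood at 10.3 to 10.58 in epithelium. Of 7 myeloid genes only Cd14 (1.42) and of 8 neutrophil genes only Ltf (5.65) were called higher, with list medians of 0.41 and -0.03. At an unadjusted p under 0.05 by limma, 2 and 1 were higher and 0 lower. In epithelium Cd14 stood at 8.4 to 8.67 and Ltf at 11.98 to 12.23. The myeloid gene Lyz2 had the largest rise of its list (2.44) but was not called. It stood at 6.46 to 7.34 in gland and 2.23 to 5.91 in splenic CD4 T cells. The part of other cells in the Cd24a difference was not tested.

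Myb was as high in CD4 T cells of the gland (4.67, 4.78, 4.64 and 4.85) as in those of the spleen (4.49, 4.68 and 5.06). Its difference of -0.01 had a 95% interval of -0.36 to 0.34. Vpreb3, Cd93, Rag1 and Rag2 differed by -0.10, -0.09, -0.05 and less than 0.01 in size, with adjusted p from 0.692 to 0.987 (limma), and averaged from 2.88 to 4.62 in gland and from 2.92 to 4.72 in splenic CD4 T cells.

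The gland effect itself differed between the cell types for 5 members. The B cell change minus the CD4 T cell change was -2.87 for Myb (SE 0.23, adjusted p = 5.87e-07), -2.03 for Cd24a (SE 0.25, adjusted p = 3.89e-05), -1.52 for Vpreb3 (SE 0.19, adjusted p = 4.87e-05), -1.42 for Cd93 (SE 0.30, adjusted p = 0.00528) and -1.41 for Rag1 (SE 0.20, adjusted p = 0.000219), by limma over all genes. Of all genes 3.87% had a difference called in that direction and 1.22% in the other. For Cd24a the B cell change was -0.04 and the CD4 T cell change 1.99. Sox4, lower in the gland in both cell types, had a difference of -0.98 (95% interval -1.79 to -0.17) that did not pass (adjusted p = 0.132). Without splenic B replicate 3 the same 5 were called, at -2.92 for Myb, -2.04 for Cd24a, -1.48 for Vpreb3, -1.38 for Cd93 and -1.39 for Rag1. Cd93 was at -0.53 and not called with the mean of its probe sets.

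The other probe sets of Sox4 did not all move like the one used, which had the highest mean of 5. A second set, annotated to the same gene, stood at 2.83, 2.42, 3.13 and 2.46 in gland B cells, against 5.75, 5.82 and 5.58 in splenic B cells, and fell by 3.01 in B cells and by 2.35 in CD4 T cells (adjusted p = 9.4e-07 and 5.16e-06 by limma over all probe sets). The other 3 sets differed by 0.12, -0.21 and -0.46 in B cells and by -0.09, -0.58 and -0.49 in CD4 T cells, and none was called. These 3 sets averaged at most 5.28 in every group. With the mean of the 5 sets Sox4 was at -1.40 in B cells and at -1.19 in CD4 T cells, and was called in both.

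**Figure D3:**
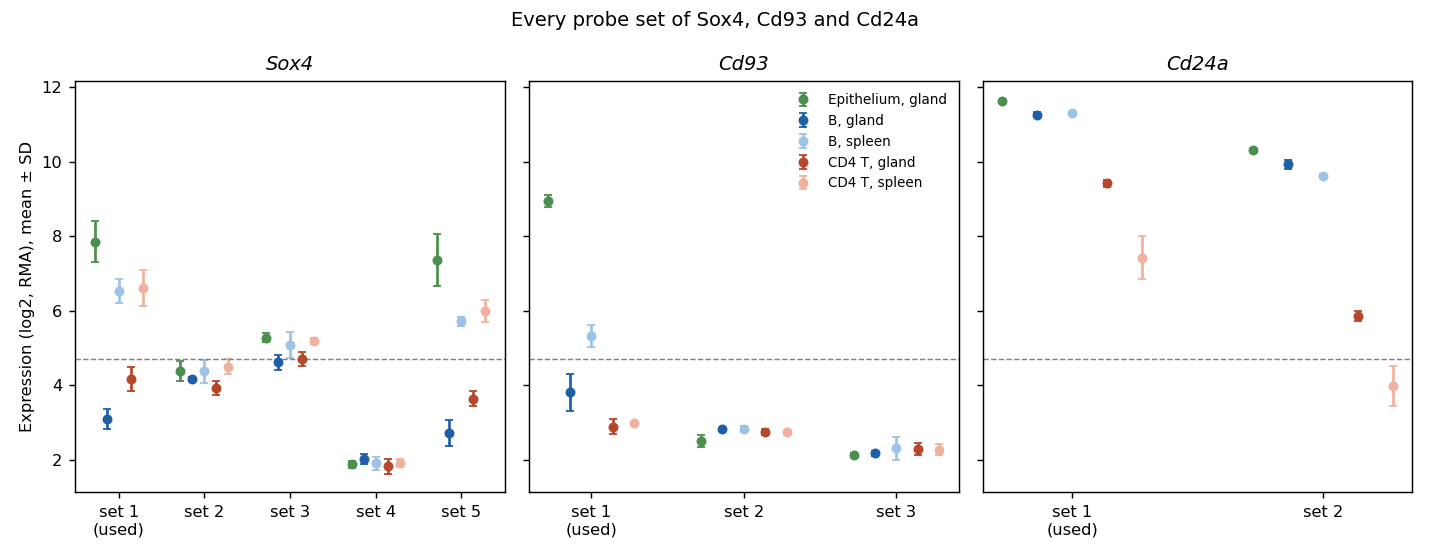
Mean ± SD (log2 expression, vertical axis) of every probe set of Sox4, Cd93 and Cd24a in the 5 groups; set 1 is the one used and the dashed line is the median of all values (4.71). Sox4 sets 1 and 5 separated gland from spleen lymphocytes, only set 1 of Cd93 rose above the line, and both sets of Cd24a stood higher in gland than in splenic CD4 T cells.

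Across the 5 sorts the members did not share a pattern. Vpreb3 followed the B lineage: it averaged 8.11 ± 0.17 in gland B cells, 9.73 ± 0.07 in splenic B cells and 4.62 to 4.72 in the other 3 groups, whose arrays overlapped. Rag1 averaged 4.6 ± 0.37 in splenic B cells and 2.96 to 3.14 elsewhere, again with overlapping arrays among those 4 groups. Rag2 averaged between 2.84 and 3.0 in all 5 groups, and every neighbouring pair in its order overlapped.

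Sox4 and Cd93 were highest in the epithelial sort. Sox4 averaged 7.86 ± 0.55 in epithelium (SD, n = 3), followed by splenic CD4 T cells (6.62 ± 0.48) and splenic B cells (6.53 ± 0.31), which overlapped, then by gland CD4 T cells (4.16 ± 0.33) and gland B cells (3.09 ± 0.28), which did not. Gland lymphocytes thus had the lowest Sox4 in the tissue whose epithelial sort had the highest. Cd93 averaged 8.95 ± 0.16 in epithelium, 3.81 ± 0.50 in gland B cells, 5.32 ± 0.29 in splenic B cells and 2.88 to 2.98 in CD4 T cells.

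Set against both gland lymphocyte groups averaged, 3 members were called higher in epithelium and 1 lower, with 15.2% of all genes higher and 10.3% lower. Cd93 was higher by 5.60 (SE 0.19, adjusted p = 4.25e-13), Sox4 by 4.24 (SE 0.24, adjusted p = 2.1e-10) and Cd24a by 1.29 (SE 0.15, adjusted p = 1.83e-06), and Vpreb3 fell by 1.71 (SE 0.12, adjusted p = 2.66e-09), by limma. Without epithelial replicate 1 these values were 5.69, 4.51, 1.31 and -1.63. The 2 averaged groups were unlike for Vpreb3 and Cd24a. Vpreb3 averaged 4.66 in epithelium, 4.62 in gland CD4 T and 8.11 in gland B cells. Cd24a averaged 11.63, 9.42 and 11.27 in the same order. With the mean of all probe sets Cd93 was higher by 1.74 and Sox4 by 1.87, and both were called. Cd93 is also a surface protein of endothelial cells, and 7 endothelial markers had a list mean in the epithelial sort of 8.07 to 8.59 over its arrays, against 3.75 to 4.32 in gland B and 3.36 to 3.50 in gland CD4 T cells. By limma 6 of the 7 were called higher than in gland lymphocytes. The exception was Pecam1, which averaged 7.14 in epithelium, 7.63 in gland B and 6.09 in gland CD4 T cells, and Egfl7 averaged above 4.71 in every group. Of those called, Emcn, Tek and Kdr, genes of vessel lining cells, averaged 9.48, 9.39 and 9.03 in that sort. The part of endothelial cells in the Cd93 level was not tested.

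B and CD4 T cells of one tissue were compared as well. In the spleen 4 members were called higher in B cells and none lower (0 lower at the adjusted threshold, with 4.63% of all genes higher and 4.52% lower): Vpreb3 by 5.02, Cd24a by 3.89, Cd93 by 2.34 and Rag1 by 1.52 (adjusted p from 3.03e-13 to 1.1e-06 by limma). With the mean of its probe sets Cd93 was at 0.83 and not called. Without splenic B replicate 3 the 4 values were 4.97, 3.89, 2.30 and 1.5, all called. Myb differed by 0.68 (adjusted p = 0.00911), under the 2-fold minimum. In the gland only Vpreb3 (3.49) and Cd24a (1.85) were called higher in B cells, with 3.73% of all genes higher, while Myb (-2.19) and Sox4 (-1.07) were called lower, with 5.97% lower. Myb averaged 2.54 in gland B cells and 4.74 in gland CD4 T cells, against 5.43 and 4.75 in the same cells of the spleen. Cd93 was at 0.92 (adjusted p = 0.00175), under the 2-fold minimum, and was called higher without gland B replicate 1 (1.15). The Sox4 call was lost without gland B replicate 1 (-0.94), without gland CD4 T replicate 2 (-0.99) or 4 (-0.96), and with the mean of its probe sets (-0.33).

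Relatives and partners of the members moved little, with a few exceptions. Of 9 measured relatives 2 were called lower in gland B cells, Vpreb1 and Thbd, and none higher (1 at an unadjusted p under 0.05). Vpreb1, a surrogate light chain gene like the unmeasured Igll1, stood at 5.06, 4.86, 4.78 and 4.87 in gland B cells, against 5.58, 6.82 and 6.24 in splenic B cells, and fell by 1.32 (SE 0.23, adjusted p = 0.000967 by limma). Its level in splenic CD4 T cells, 6.17 ± 0.26, was close to that in splenic B cells (6.21 ± 0.62). Vpreb1 and Vpreb2 are near-identical copies, so signal may be shared between their probe sets. Thbd, which encodes thrombomodulin and belongs to the same lectin-like family as Cd93, averaged 4.64 ± 0.78 in gland B cells and 5.92 ± 0.18 in splenic B cells, and fell by 1.28 (adjusted p = 0.00557 by limma). Like Cd93, it was highest in the epithelial sort (10.87 ± 0.14), where the endothelial list mean was 8.07 to 8.59. The part of endothelial cells in the Thbd level was not tested. The Thbd call was lost without gland B replicate 1 (-1.0) and when only the B cell groups were fitted (adjusted p = 0.0507). The Sox relatives Sox11 (0.19) and Sox12 (0.03), the Myb relatives Mybl1 (-0.06) and Mybl2 (-0.35), and Vpreb2 (-0.24), Clec14a (0.46) and Cd248 (0.24) were not called. In CD4 T cells none of the 9 was called by limma (1 lower and 0 higher at an unadjusted p under 0.05).

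Genes whose products work with Rag1 and Rag2, most of them joining the cut DNA ends, others assisting the cut or signalling the break, were not called in either cell type. Of 10 such genes measured, 0 were called in B cells (5 lower and 1 higher at an unadjusted p under 0.05) and 0 in CD4 T cells (4 lower and 1 higher), by limma. In B cells the ligase gene Lig4 and Xrcc6, which encodes Ku70, were at -0.80 each (adjusted p = 0.00163 and 0.000721), under the 2-fold minimum, and Dntt, which adds bases at the joints, at 0.44 (adjusted p = 0.0346).

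Genes of mature B cells did not follow the immature genes. None of 12 mature B cell surface genes was called in B cells (2 higher and 2 lower at an unadjusted p under 0.05), and their median was -0.01. Their mean level was 10.12 ± 0.04 in gland and 10.11 ± 0.03 in splenic B cells. None of 8 genes of pre-B and B cell receptor signalling was called either (0 higher and 1 lower at an unadjusted p under 0.05, median -0.18). The kinase gene Syk was at -0.93 there (adjusted p = 0.0105). With array weights, without gland B replicate 3 or without splenic B replicate 2, 1 of the 8 was called lower. Of 14 transcription factors of the B lineage 1 was called, Id3, an inhibitor of E proteins, which stood at 6.95 ± 0.13 in gland and 8.30 ± 0.11 in splenic B cells and fell by 1.35 (adjusted p = 2.23e-06 by limma). Id3 fell by 1.56 in CD4 T cells too (adjusted p = 1.78e-07 by limma), where Lef1, a factor of naive T cells, fell by 1.42. Irf4 and Irf8 rose there by 1.85 and 2.02, to means of 10.92 and 7.35 in gland CD4 T cells. In gland B cells they averaged 11.6 and 10.15.

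Most of the cell division genes fell together with Myb in B cells. Of 14 measured, 10 were called lower and 0 higher (1 higher at an unadjusted p under 0.05), with a median of -1.19, against 0 over all genes, and after averaging each gene's probe sets 5 were called lower. Nusap1, a protein of the mitotic spindle, fell by 1.77 and Mki67, the proliferation antigen, by 1.56 (adjusted p = 0.000192 and 0.00093 by limma). Nusap1 was at -0.87 and not called with the mean of its probe sets. Pcna went the other way by 0.69, under the 2-fold minimum. It stood at 10.23 to 10.42 in gland and 9.53 to 9.70 in splenic B cells. Mcm5 averaged 6.82 in gland and 6.85 in splenic B cells. The list's mean level ran from 5.33 to 5.83 in the gland B arrays, against 6.38 to 6.82 in the spleen B arrays. In CD4 T cells none was called (7 higher and 0 lower at an unadjusted p under 0.05 by limma), with a median of 0.51. Of 8 genes of blood cell precursors only Flt3, a growth factor receptor, was called in B cells, and it rose by 1.51 (adjusted p = 7.19e-05). Kit and Cd34, the defining markers of such precursors, averaged 2.69 and 2.94 in gland and 2.48 and 2.08 in splenic B cells.

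**Figure D4:**
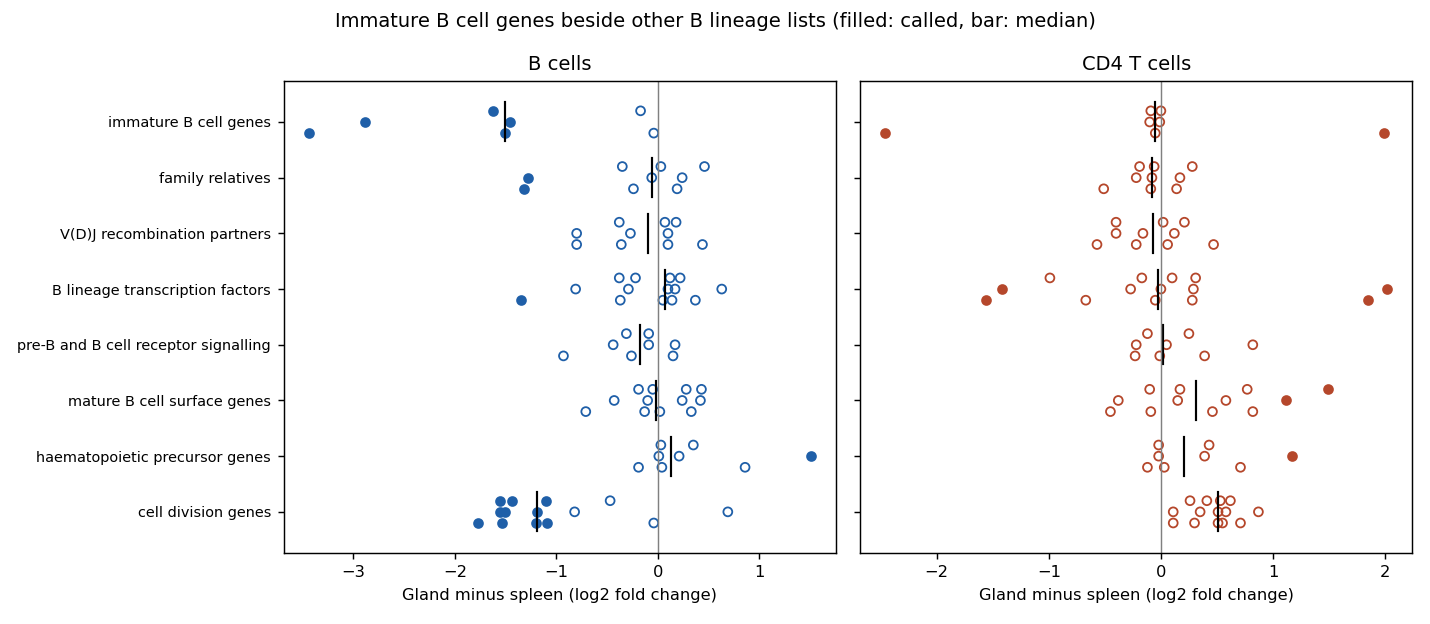
Gland minus spleen log2 fold change (horizontal axis) of each gene of the immature B cell list and 7 further lists, in B cells (left) and CD4 T cells (right); filled points were called and bars are list medians. In B cells the medians of the immature B cell genes (-1.51) and of cell division genes (-1.19) lay below -1, and those of the other 6 lists between -0.18 and 0.13.

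Marker lists of other cells were read beside these B cell differences, and of them the epithelial and plasma cell lists had levels that did not overlap between gland and spleen B arrays. The mean level of red cell precursor genes was 4.56 to 5.13 in gland B arrays and 5.12 to 5.49 in spleen B arrays, with 1 of 5 called lower, Hba-a1, a haemoglobin gene also at 10.97 in epithelium. Neutrophil precursor genes ran from 3.89 to 4.21 in gland B arrays and from 3.58 to 6.56 in spleen B arrays, with 1 of 8 called, Ltf, the lactoferrin gene, which was higher and stood at 12.1 in epithelium. In splenic B cells 5 of the 8 averaged above 4.71, S100a8, S100a9, Ngp, Camp and Ltf, and in gland B cells 1 did. The other 3, Mpo, Elane and Prtn3, averaged from 3.12 to 3.57 in both groups. The high averages in splenic B cells came with replicate 3, where these 5 genes stood at 9.63, 9.72, 7.82, 6.93 and 7.61. In replicates 1 and 2 S100a8 was at 3.59 and 3.32 and S100a9 at 4.98 and 4.22. There Ngp was at 3.34 and 3.43, Camp at 3.63 in both, and Ltf at 3.55 and 4.18. Without the spleen array rich in neutrophil genes, Sox4 was at -3.39, Myb at -2.93, Vpreb3 at -1.58, Cd93 at -1.47 and Rag1 at -1.44. Among the other genes Vpreb1 was then at -1.31, Thbd at -1.34, Id3 at -1.31, Flt3 at 1.5, Nusap1 at -1.90 and Mki67 at -1.75, all called, and 10 cell division genes were called lower. Epithelial markers ran from 5.81 to 6.08 in gland B arrays and from 3.92 to 4.03 in spleen B arrays, with 4 of 7 called higher. Plasma cell genes ran from 6.66 to 6.98 in gland B arrays and from 7.54 to 7.93 in spleen B arrays. Of these 4 genes 1, Tnfrsf17, was called lower, a call lost without splenic replicate 1 (-1.0). Jchain had the largest fall of that list (-1.55) but was not called. Its arrays lay apart, at 9.43 to 9.86 in gland and 11.15 to 11.22 in splenic B cells. Plasmacytoid dendritic cell genes ran from 6.54 to 8.03 in gland B arrays and from 6.65 to 6.78 in spleen B arrays, with 1 of 5, Ccr9, called higher, a call lost when only the B cell groups were fitted (adjusted p = 0.0576). Of 7 myeloid, 7 endothelial and 6 T cell markers none was called in B cells (1, 2 and 1 higher and 0, 0 and 1 lower at an unadjusted p under 0.05 by limma). The sort gate left out cells positive for CD11b, CD11c or NKp46, surface markers of myeloid, dendritic and natural killer cells. The part of these cells was not tested, apart from the values without that array.

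For each member with a group mean above 4.71, the genes with the nearest profile were taken by the root mean square difference over the 17 arrays, after each gene was centred on its own mean. Nearest to Sox4 were Nebl (0.69) and H2bc21 (0.82). Nearest to Myb were Nusap1 (0.53) and Aspm (0.57), both genes of the mitotic spindle. Il4i1 (0.38) and Cdh17 (0.44) were nearest to Vpreb3, Robo1 (0.62) and Antxr1 (0.65) to Cd93, and Myo1c (0.30) and Cobll1 (0.31) to Cd24a. Nusap1 averaged 5.24 ± 0.56 in gland B cells and 7.0 ± 0.30 in splenic B cells, and 7.55 ± 0.28 in gland and 7.04 ± 0.21 in splenic CD4 T cells. Cdh17, a cadherin, averaged 5.69 in gland and 6.22 in splenic B cells and 1.91 to 2.13 in the other groups.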

How the data were processed

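The values are log2 expression levels deposited for 45141 probe sets and 17 arrays, made by the authors with Partek and RMA, per the submitters' processing notes (versions and array scan dates are not given in the sources used here). Per the labels, RNA was amplified and labelled with biotin. Probe sets were named from the platform annotation, with symbols updated by gene identifier: 28898 had exactly 1 gene (28689 matched), 551 several, 15588 none listed and 104 were controls. Each of 17097 genes was represented by whichever of its probe sets averaged highest across the arrays. No dim gene was left out.

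A limma 3.58.1 fit in R 4.3.3 gave each of the 5 groups a mean, with variances moderated by eBayes. Contrasts were tested with Benjamini-Hochberg adjustment over all genes and called at an adjusted p under 0.05 and at least 2-fold. Errors beside means are SDs between arrays, and intervals are 95%. The number of arrays limits the precision; the median SE of a gland against spleen difference was 0.121. The members and gene lists were chosen with earlier results of these data known. All members were named, all measured relatives, up to 4 called genes from each further list and the 2 genes nearest in profile to each member. Promoters came from RefSeq (GRCm38.p6). The code was tested on simulated data. The alternatives tried were no fold minimum, averaging the probe sets of a gene, all probe sets, array medians centred, quantile normalization, dim genes left out, trend and robust eBayes, array weights, a replicate block, only the groups compared, and leaving out each array.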

Additional observations from a re-analysis of the deposited data

Results flagged for a closer look

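The gland effect differed between B and CD4 T cells for 5 members, by the interaction contrast in limma: Myb (-2.87), Cd24a (-2.03), Vpreb3 (-1.52), Cd93 (-1.42) and Rag1 (-1.41), each as the B cell change minus the CD4 T cell change on the log2 scale. Myb, Vpreb3, Cd93 and Rag1 were lower in gland than in splenic B cells, with CD4 T cell changes of -0.01, -0.10, -0.09 and -0.05, and Cd24a was higher in gland than in splenic CD4 T cells, with a B cell change of -0.04.

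Single arrays stood apart in 2 of 14 groups of 4 arrays tested with Dixon's criterion, which flags about 1 in 20 groups by chance. Vpreb3 was at 8.37 in gland B replicate 4 and at 8.01 to 8.05 in the other gland B arrays. Rag2 was at 2.53 in the same array and at 2.90 to 2.96 in the others. Without gland B replicate 4 the B cell difference was -1.70 for Vpreb3 and -0.07 for Rag2, and the calls were as before.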

How the results depend on the processing

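Of 779 member fold changes recomputed over 42 pairs of a member and a comparison, 752 kept their direction and their side of the threshold, 7 lost a call, 4 gained one and 16 changed sign. Every sign change was in a value that was not called. Averaging probe sets put Cd24a in B cells at 0.13. On leaving out single arrays, values in CD4 T cells ran from -0.14 to 0.15 for Myb, from -0.21 to 0.02 for Vpreb3, from -0.13 to 0.06 for Rag1 and from -0.05 to 0.04 for Rag2. Between B and CD4 T cells they ran from -0.13 to 0.02 for Rag2 in the gland and from -0.31 to 0.16 for Sox4 in the spleen. In epithelium Rag2 was at -0.07 with array medians centred.

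The count of members lower in B than in CD4 T cells of the gland was 1 in place of 2 after averaging probe sets, and ran from 1 to 2 on leaving out single arrays. With no fold minimum 2 members in place of 1 were lower in epithelium. In gland B cells 5 members were called lower under all alternatives apart from averaging probe sets (4 of 7) and the filter on dim genes (4 of 5 members left). The cause of these changes was not tested. Same-numbered arrays did not deviate together (correlations of -0.11 to -0.01 between gland and splenic B cells and of -0.4 to 0.21 over all pairs of groups), so the numbers were not taken as pairs. With the replicate block 5 members were lower in gland B cells and no call on a member was lost; Rag2 in CD4 T cells was at 0.04. Low levels of Rag1 and Rag2 near the bottom of the scale limit what the arrays can show for them.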
